A study of Mus musculus with 6 samples.

Results

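The 10 genes described here encode receptors of natural killer (NK) cells, the adaptors through which some of them signal, and a transcription factor of innate-like T cells: Klrd1, Klrk1, Klrc1, Klrb1c, Klre1, Klra7, Ncr1, Zbtb16, Fcer1g and Tyrobp. They were chosen by gene symbol from the 28430 symbols of the count table, and all 10 were found there. The assay was bulk RNA-Seq on sorted CD4 T cells of liver, taken from mice on a choline-deficient, high-fat diet low in methionine that brings on metabolic dysfunction-associated steatohepatitis (MASH). The 3 libraries labelled dKO came from mice with floxed alleles of the orphan nuclear receptors Nr4a1 and Nr4a2 (Nr4a1 fl/fl and Nr4a2 fl/fl) and a Cd4Cre transgene that deletes them in T cells, and the 3 libraries labelled WT came from WT mice. Every animal received the diet, so no library shows these genes without MASH. The Cd4Cre transgene acts in the thymus at a stage before CD4 and CD8 T cells part, so it deletes in both lineages and in NKT cells, but not in NK cells. Age and sex for these libraries, and whether the WT mice carried floxed alleles, were not stated in the labels or the methods.

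NK cells weigh signals from inhibitory and activating receptors, many of them lectin-like proteins whose genes lie side by side in the NK gene complex. Many of the activating receptors lack signalling motifs of their own and borrow them from small adaptor proteins held in the membrane. NKT cells and other innate-like T cells, which are abundant in mouse liver, carry several of the same receptors and develop under the transcription factor PLZF, and conventional T cells can gain some of them after strong or repeated stimulation. In a bulk sample, fewer cells that carry a gene and less RNA of it per cell cannot be told apart.

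The libraries labelled dKO held 5747744 to 8740564 counted reads and those labelled WT 7124553 to 11078184. Of all symbols, 15694 were abundant enough to be tested, and between groups 337 were higher (2.15%) and 183 lower (1.17%) in the libraries labelled dKO at an adjusted p under 0.05. Levels are normalised CPM, reads per 1000000 counted reads after scaling between libraries. Changes are log2 fold changes of dKO over WT with their SE, and the adjusted p is that of edgeR's quasi-likelihood test with Benjamini-Hochberg adjustment over all genes tested. Of the targeted genes, Nr4a2 went against the label, with 477, 539 and 391 CPM in the libraries labelled dKO and 160, 284 and 234 CPM in WT (1.05 ± 0.21, edgeR adjusted p = 0.0308, and 0.0789 to 0.128 without dKO 1, dKO 2 or WT 3). Nr4a1 had 711, 1033 and 639 CPM in the libraries labelled dKO and 328, 676 and 818 CPM in WT (0.39 ± 0.37, edgeR adjusted p = 0.650). These counts sum over each whole gene and do not show whether reads came from the deleted part, so they cannot check the label, and the groups are called by their labels throughout. Cd4 had 393, 430 and 389 CPM in the libraries labelled dKO and 370, 408 and 349 CPM in WT, and 0 of 10 T cell marker genes tested were called by edgeR (3 at an unadjusted p under 0.05, 1 by DESeq2).

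Of the 10 genes, 8 were abundant enough to be tested, and 1, Fcer1g, was called lower in the libraries labelled dKO, where the background was 1.17% of all genes. Fcer1g passed the filter on low counts through its WT libraries alone. This limits its call, and its place among the 3 genes without overlap below. None of the 8 was called higher by edgeR, DESeq2 or limma-voom. Over all 15694 genes tested, 337 (2.15%), 501 and 344 were called higher by these. At an unadjusted p under 0.05 in edgeR, 5 of the 8 were lower, Fcer1g among them, and 0 higher. The share of all genes at that p is not given, so these counts cannot be set against a background. At the study's thresholds (fold under 0.5 or above 1.5, unadjusted p under 0.05) Klrb1c and Fcer1g were lower, beside 1.37% of all genes tested, and none was higher, beside 4.54%. The log2 fold changes of all 8 lay below 0, with a median of -0.68, against 50.8% of all genes tested below 0 and a median of -0.0061. In 3 of the 8, Fcer1g, Klrk1 and Klre1, every library labelled dKO lay below every WT library, as it did for 11.7% of all genes tested, and in none did every library labelled dKO lie above every WT library, as it did for 13.3%. The lectin-like receptor genes are neighbours in the genome and may be carried by the same cells, so these genes are not independent of one another, and these counts are a description.

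**Figure D1:**
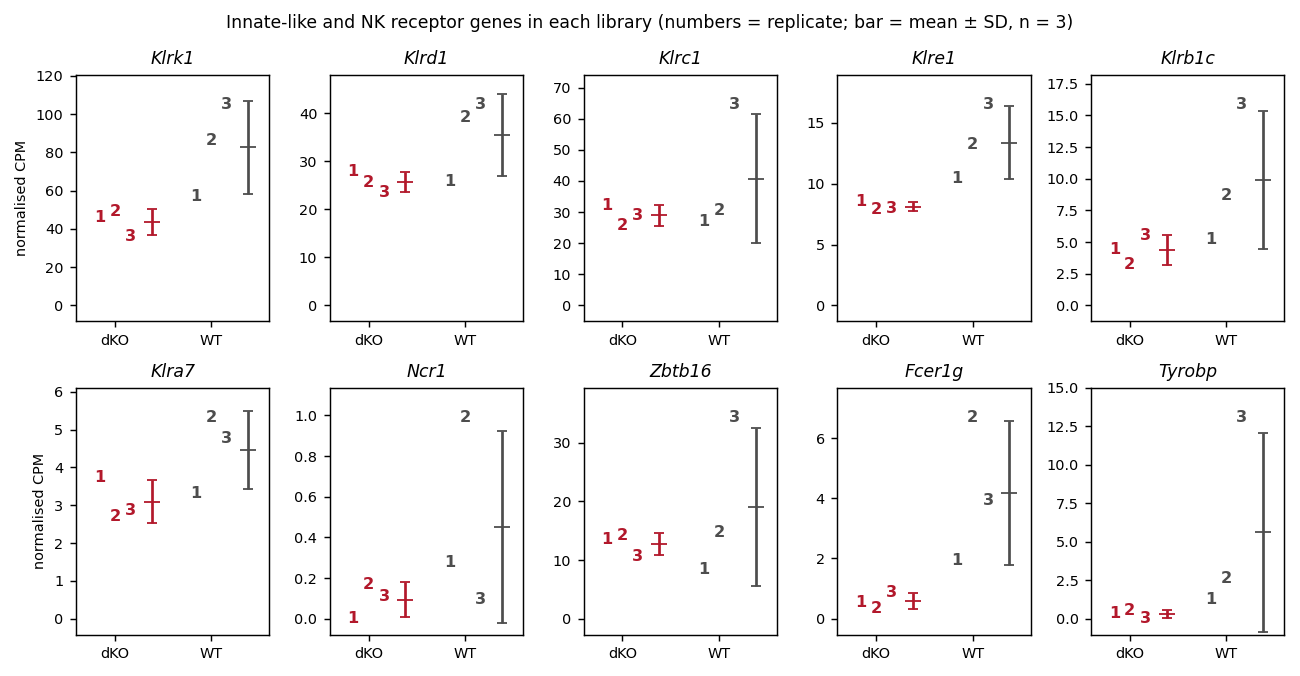
Normalised CPM (vertical axis, linear, a separate scale for each gene) of the 10 genes in each library, dKO on the left and WT on the right. Each numeral is the library of that replicate number and each bar the mean ± SD of 3 libraries. The libraries labelled dKO lie close together, while WT 3 is the highest library for 7 of the 10 genes and WT 1 is the lowest WT library for 9.

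Klrk1 encodes NKG2D, the activating receptor for stress-induced ligands of the RAE-1, H60 and MULT1 families, which activated T cells also carry. It had 46.1, 49.3 and 36.2 CPM in the libraries labelled dKO, against 56.8, 86.1 and 105 CPM in WT. The groups did not overlap, and the spread was wider among WT libraries. The log2 fold change was -0.92 ± 0.23 (95% interval -1.45 to -0.40, edgeR adjusted p = 0.0742), short of the threshold. It was called lower in 7 of 16 alternatives. DESeq2 (5.79e-04) and limma-voom (0.0484) put its adjusted p under the threshold, as did leaving out WT 1 (edgeR, -1.14, adjusted p = 2.12e-04), and without WT 3 it was -0.71 (edgeR adjusted p = 0.0999).

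Klre1 encodes a lectin-like receptor of NK cells from the same cluster. It had 8.54, 7.90 and 7.93 CPM in the libraries labelled dKO and 10.5, 13.2 and 16.5 CPM in WT. The 3 libraries labelled dKO differed little from each other and all lay below WT 1. Its log2 fold change was -0.73 ± 0.21 (95% interval -1.18 to -0.29, edgeR adjusted p = 0.0713). Without WT 1 it was called lower (-0.88, edgeR adjusted p = 0.0196).

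The promoters of the 3 genes whose groups did not overlap and which were tested are given from RefSeq (GRCm38.p6), 250 bases before to 50 bases after the start of transcription, on the strand of the gene. Capitals mark TGTGGT, the core of the site bound by RUNX factors, which act in NK cells and T cells. The Klrk1 window is chr6:129623815-129624114 (minus strand), that of Klre1 chr6:129577963-129578262 (plus strand) and that of Fcer1g chr1:171234300-171234599 (minus strand).
Klrk1: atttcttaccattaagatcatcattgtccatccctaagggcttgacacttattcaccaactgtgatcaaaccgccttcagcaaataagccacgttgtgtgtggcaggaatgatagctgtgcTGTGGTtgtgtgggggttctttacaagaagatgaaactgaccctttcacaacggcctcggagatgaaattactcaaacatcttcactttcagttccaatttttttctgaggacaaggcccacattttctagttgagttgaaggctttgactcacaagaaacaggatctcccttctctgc
Klre1: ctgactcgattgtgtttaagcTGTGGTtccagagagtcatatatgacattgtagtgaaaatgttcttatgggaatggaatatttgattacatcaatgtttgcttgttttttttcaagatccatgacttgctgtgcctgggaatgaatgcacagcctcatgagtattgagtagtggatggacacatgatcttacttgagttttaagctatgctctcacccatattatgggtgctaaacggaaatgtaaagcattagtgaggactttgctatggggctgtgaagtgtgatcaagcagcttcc
Fcer1g: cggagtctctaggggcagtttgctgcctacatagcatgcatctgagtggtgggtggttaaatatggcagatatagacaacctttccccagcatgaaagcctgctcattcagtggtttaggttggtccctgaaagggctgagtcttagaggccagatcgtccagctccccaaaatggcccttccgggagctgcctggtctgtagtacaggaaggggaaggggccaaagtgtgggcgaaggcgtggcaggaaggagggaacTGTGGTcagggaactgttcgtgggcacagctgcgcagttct
A further Klre1 window, which begins downstream of the printed one, holds no TGTGGT. Promoters were matched for 7 of the 10 genes (10 windows), and TGTGGT or its reverse complement ACCACA stood in 7 of the 10 windows and in at least 1 window of 6 of the genes, all but Klra7. By the same search on both strands, 16.8% of the 32851 promoters of this length in the table held it. The NBRE, AAAGGTCA, the element that NR4A receptors bind as monomers, was in 0 of the 7 (1.51% of all promoters). The T-box letters AGGTGTGA (1.28% of all promoters) and the ETS letters AGGAAGT (9.35%) were also in 0 of the 7. TGTGGT was the only one of the 4 motifs found, so no match overlapped another motif. These are matches of letters in a short window, and the motif searches were a description with no test.

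Klrd1 encodes CD94, the invariant partner that NKG2A and NKG2C need to reach the cell surface. It had 27.8, 25.6 and 23.6 CPM in the libraries labelled dKO and 25.7, 39.0 and 41.8 CPM in WT. WT 1 lay among the libraries labelled dKO, and the other WT libraries lay above them. Its change was -0.48 ± 0.17 (95% interval -0.86 to -0.11, edgeR adjusted p = 0.147), and without WT 1 it was called lower (-0.67, edgeR adjusted p = 0.00737).

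Klrc1 encodes NKG2A, the inhibitory chain that with CD94 binds Qa-1. It had 32.2, 25.6 and 29.0 CPM in the libraries labelled dKO and 27.0, 30.6 and 64.5 CPM in WT. The groups overlapped, and WT 3 alone stood above the rest. A log2 fold change of -0.51 ± 0.36 was found (95% interval -1.40 to 0.38, edgeR adjusted p = 0.522), and without WT 3 it was 0.0047 (edgeR adjusted p = 0.992). The counts of Klrc1 carry a limit of their own. Of its 50-base stretches of annotated exon sequence, 36.6% occur also in Klrc2, and how the authors' counting split such reads was not stated.

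Klrb1c encodes NK1.1, an activating receptor that pairs with the adaptor made from Fcer1g and by which NK and NKT cells of C57BL/6 mice are commonly gated. It had 4.45, 3.20 and 5.51 CPM in the libraries labelled dKO and 5.23, 8.64 and 15.8 CPM in WT. WT 1 lay just under dKO 3, and WT 3 was highest. On the log2 scale the change was -1.17 ± 0.40 (95% interval -2.09 to -0.26, edgeR adjusted p = 0.150). It was -1.47 without WT 1, where it was called lower (edgeR adjusted p = 0.0101), and -0.64 without WT 3 (edgeR adjusted p = 0.324), and DESeq2 called it lower (adjusted p = 0.0407). Of its exon bases, 413 of 2961 (13.9%) lie also in the predicted gene Gm44511 on the same strand.

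Klra7 encodes Ly49G, an inhibitory receptor for classical MHC class I. It had 3.74, 2.69 and 2.86 CPM in the libraries labelled dKO and 3.30, 5.31 and 4.75 CPM in WT. The groups overlapped at WT 1. Its log2 fold change was -0.54 ± 0.29 (95% interval -1.16 to 0.08, edgeR adjusted p = 0.329). It shares 12.3% of its 50-base stretches with the pseudogene Klra13-ps, so its counts too are uncertain.

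Ncr1 encodes NKp46, which in mice marks NK cells and the innate lymphoid cells closest to them. It was too low to be tested, with 0, 1 and 1 reads in the libraries labelled dKO and 2, 8 and 1 reads in WT. The groups overlapped. Over all libraries this was 2 reads against 11, a ratio of WT to dKO per counted read of 4.35 with a 95% exact counting interval of 0.95 to 40.4, and without WT 2 the ratio was 1.72 (0.197 to 20.6). Intervals of this kind cover counting error only, not the spread between mice.

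Zbtb16 encodes PLZF, the factor that directs NKT cells and other innate-like T cells. It had 13.5, 14.1 and 10.7 CPM in the libraries labelled dKO and 8.39, 14.7 and 34.2 CPM in WT. The lowest and the highest library were both WT, so the spread within WT was wider than the difference between groups. The log2 fold change was -0.62 ± 0.54 (95% interval -1.96 to 0.72, edgeR adjusted p = 0.611), and without WT 3 it was 0.13 (edgeR adjusted p = 0.852).

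Fcer1g encodes the common gamma chain of Fc receptors, the adaptor of NK1.1, NKp46 and Fc receptors. Its promoter is printed above. It had 3, 2 and 8 reads in the libraries labelled dKO and 14, 54 and 42 reads in WT, or 0.534, 0.336 and 0.881 CPM against 1.93, 6.67 and 3.92 CPM. The groups did not overlap, and every library labelled dKO stood under 1 CPM. The log2 fold change was -2.72 ± 0.53 (95% interval -3.89 to -1.56, edgeR adjusted p = 0.0186). It was called lower in 13 of 16 alternatives, and not without dKO 1 (-2.65, edgeR adjusted p = 0.110), without dKO 2 (-2.48, edgeR adjusted p = 0.0927) or by limma-voom (-2.59, adjusted p = 0.0530). No library labelled dKO and 3 WT libraries reached the level of 1.34 CPM that the filter on low counts used, so the gene entered the test through its WT libraries alone.

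Tyrobp encodes DAP12, the adaptor of activating Ly49 receptors and of CD94-NKG2C. It was not tested, since 2 libraries reached that level. It had 2, 3 and 0 reads in the libraries labelled dKO and 9, 21 and 140 reads in WT. Every library labelled dKO lay below every WT library, and WT 3 held most of the reads. Over all libraries this was 5 reads against 170, a ratio of WT to dKO per counted read of 26.9 (95% exact counting interval 11.3 to 83.9), and without WT 3 the ratio was 8.06 (3.10 to 26.6). Without the filter its log2 fold change was -4.50 (edgeR adjusted p = 0.334).

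**Figure D2:**
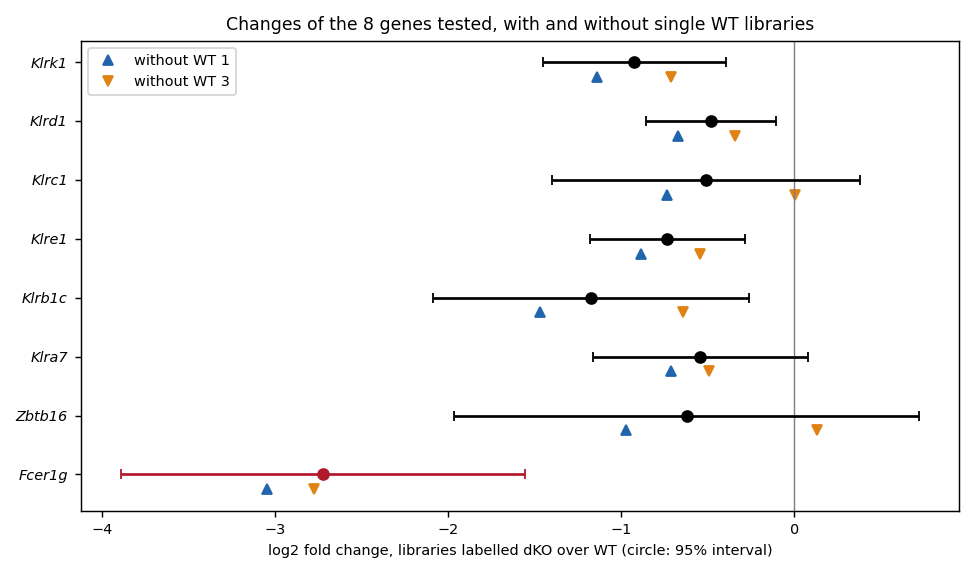
Log2 fold changes of libraries labelled dKO over WT (horizontal axis) for the 8 genes tested. Circles with bars are estimates with 95% intervals from edgeR, red for Fcer1g, whose adjusted p was under 0.05, and triangles are the estimates without WT 1 (upward) or without WT 3 (downward). All circles lie below 0, and without WT 3 the triangles of Klrc1 (0.0047) and Zbtb16 (0.13) lie above it.

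The 2 adaptors are also made by macrophages, dendritic cells and other myeloid cells, so markers of those cells were read beside them. Of 21 macrophage and monocyte markers, 6 were tested, with 1 called higher, Ctss, and 1 lower, Ly6c1. Ctss, which encodes the protease cathepsin S, had 193, 176 and 189 CPM in the libraries labelled dKO and 125, 103 and 109 CPM in WT (0.73 ± 0.11, edgeR adjusted p = 0.00385). Ly6c1, a gene of the surface antigen Ly6C that T cells carry too, had 34.2, 47.6 and 30.7 CPM in the libraries labelled dKO and 73.7, 77.9 and 80.3 CPM in WT (-1.05 ± 0.15, edgeR adjusted p = 0.00330). Adgre1, Vsig4, C1qa, C1qb and Marco had no read in any library, and Csf1r had reads in dKO 3 alone, at 0.110 CPM. The summed level of the list, most of it from Ccr2 and Ctss, which T cells express too, was 427 to 437 CPM in the libraries labelled dKO and 305 to 399.9 CPM in WT. Of 10 dendritic cell markers, 8 were tested, with 6 log2 fold changes below 0, and 2 were called lower, Itgax, the integrin chain CD11c, and Xcr1, the receptor for XCL1. Itgax had 0.178, 0.168 and 0.110 CPM in the libraries labelled dKO and 2.06, 2.22 and 2.33 CPM in WT (-3.78 ± 0.54, edgeR adjusted p = 0.00330). That was 1 read in each library labelled dKO, so Itgax entered the test through its WT libraries alone. Xcr1 had 3.56, 5.04 and 4.19 CPM in the libraries labelled dKO and 13.2, 10.001 and 11.6 CPM in WT (-1.44 ± 0.22, edgeR adjusted p = 0.00484). Zbtb46, a transcription factor of dendritic cells named after its values were seen, had 11.6, 14.3 and 12.2 CPM in the libraries labelled dKO and 7.29, 10.001 and 6.71 CPM in WT (0.67 ± 0.21, edgeR adjusted p = 0.0963). Cd74, the invariant chain of MHC class II, also named after its values were seen, had 107, 120.2 and 106 CPM in the libraries labelled dKO and 17.1, 99.8 and 49.5 CPM in WT (0.996 ± 0.650, edgeR adjusted p = 0.501). In both genes every library labelled dKO lay above every WT library, and neither was called. The other 6 tested genes lay below 0. Of these, H2-Ab1, an MHC class II gene, was named after its values were seen. It had 0.534, 1.18 and 0.551 CPM in the libraries labelled dKO and 1.79, 2.22 and 7.55 CPM in WT. Its groups did not overlap (-2.43 ± 0.68, edgeR adjusted p = 0.0914). Like Itgax, H2-Ab1 entered the test through its WT libraries alone. Cd209a and Clec9a, also named after their values were seen, were too low to be tested. They had reads in WT alone, 15 and 10 of them in WT 3. Siglech, also named after its values were seen, encodes a plasmacytoid dendritic cell receptor that signals through DAP12. It had 4.81, 2.52 and 2.53 CPM in the libraries labelled dKO and 4.26, 3.95 and 22.4 CPM in WT. The groups overlapped, and it was not called (-1.71 ± 0.89, edgeR adjusted p = 0.384). Its highest library, WT 3, was also the highest for Tyrobp. The list's summed level, most of it from Cd74, was 128 to 146 CPM in the libraries labelled dKO and 48.5 to 132 CPM in WT. The part of dendritic cells in the values of Fcer1g and Tyrobp was not tested.

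Markers of NK cells and innate lymphoid cells outside the 10 genes did not move in 1 direction. Of 21 listed, 16 were tested, with 1 called higher, Prf1, and 2 lower, Gzma and Klrb1b. Of these, Klrb1b entered the test through its WT libraries alone. The summed level of the list was 887 to 966 CPM in the libraries labelled dKO and 655 to 1002 CPM in WT. Most of it came from Nkg7, Gzmb and Ctsw, which T cells express too. Prf1, which encodes perforin, had 47.2, 38.7 and 44.9 CPM in the libraries labelled dKO and 29.4, 24.7 and 21.0 CPM in WT (0.81 ± 0.14, edgeR adjusted p = 0.0103, and 0.0700 without dKO 1). Gzma, a granzyme of NK cells and innate-like T cells, had 13.2, 10.1 and 10.02 CPM in the libraries labelled dKO and 30.9, 35.8 and 28.9 CPM in WT (-1.53 ± 0.16, edgeR adjusted p = 5.51e-04). These 2 genes of the cytotoxic granule thus passed the test in opposite directions. Both CD8 markers were called higher, Cd8a with 197, 183 and 198 CPM in the libraries labelled dKO and 119, 139 and 119 CPM in WT (0.62 ± 0.11, edgeR adjusted p = 0.00866, and 0.0550 without dKO 1). Cd8b1 had 129, 112 and 138 CPM in the libraries labelled dKO and 82.9, 97.0 and 79.1 CPM in WT (0.55 ± 0.12, edgeR adjusted p = 0.0236), and lost its call without dKO 1, dKO 3 or WT 3 (edgeR adjusted p = 0.0843 to 0.109) and by limma on log2(CPM + 1) or log2(CPM + 0.1) (adjusted p = 0.0518 to 0.0589). Cd8a and Cd8b1 summed to 295 to 337 CPM in the libraries labelled dKO and 198 to 236 CPM in WT. The cells were sorted as CD4 T cells, a gate that should remove CD8 T cells. CD8 T cells can carry NKG2D, NKG2A and CD94, and their part in the values of Klrk1, Klrc1 and Klrd1 was not tested.

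Per kilobase of annotated exon, CD94 and its NKG2A partner led the 10 genes. This order depends on the exon length used, 7183 bases for Klrk1 and 1281 for Klrd1. Without the length Klrk1 led, with a mean of 43.9 CPM in the libraries labelled dKO and 82.6 CPM in WT. Comparing genes per kilobase takes reads to cover all annotated exons evenly, which was not tested. Klrd1 had 20.0 ± 1.64 CPM per kilobase in the libraries labelled dKO and 27.7 ± 6.70 in WT (SD, n = 3 each). Klrc1 had 14.6 ± 1.68 CPM per kilobase in the libraries labelled dKO and 20.5 ± 10.4 in WT. Klrk1 followed with 6.11 ± 0.946 CPM per kilobase in the libraries labelled dKO and 11.5 ± 3.38 in WT. Klre1, Klra7, Zbtb16 and Klrb1c lay between 1.48 and 2.45 CPM per kilobase as means of the libraries labelled dKO and between 3.35 and 3.83 as means of WT, where they differed by less than their spread. Fcer1g had 0.668 CPM per kilobase in the libraries labelled dKO and 4.77 in WT, Tyrobp 0.430 and 8.44, and Ncr1 0.0602 and 0.294. The 2 adaptors thus stood below those 4 genes in the libraries labelled dKO, and above them in WT by the mean alone. By library, Fcer1g stood above all 4 genes in WT 2 alone (7.63) and Tyrobp in WT 3 alone (19.6). The WT SD of Tyrobp (9.69) exceeded its mean.

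The lectin-like receptors were then read within their families. Over all genes tested, edgeR called 1.17% lower and 2.15% higher, and 50.8% of log2 fold changes lay below 0. This is the background for each list of genes here. Of 8 listed genes of the NKG2 and CD94 family, 7 were tested and 1 was called, the activating chain NKG2C (Klrc2). The log2 fold changes of all 7 lay below 0, with a median of -0.83. Klrc2 had 1.78, 2.19 and 1.76 CPM in the libraries labelled dKO and 4.54, 6.05 and 9.04 CPM in WT. The groups did not overlap, and the change was -1.80 ± 0.32 (edgeR adjusted p = 0.0108, and 0.0666 without dKO 1). Klrc3, which encodes NKG2E and is named after its values were seen, had 2.49, 2.19 and 3.08 CPM in the libraries labelled dKO and 1.65, 4.57 and 8.58 CPM in WT (-0.95 ± 0.52, edgeR adjusted p = 0.365).

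Ratios within a library do not depend on the scaling between libraries, and 4 of them were computed, chosen after the values were seen. Exact two-sided permutation p-values over 3 against 3 libraries, whose smallest value is 0.1, are given beside them, and adjusted over the 4 ratios they were 0.2 to 1. The share of Klrc2 in the reads of Klrc1 and Klrc2 together, the activating against the inhibitory partner of CD94, was 5.24%, 7.88% and 5.73% in the libraries labelled dKO and 14.4%, 16.5% and 12.3% in WT. The groups did not overlap, and the means were 6.28% ± 1.40 in the libraries labelled dKO and 14.4% ± 2.10 in WT (SD, n = 3 each, exact permutation p = 0.1). By counting error alone the 95% Wilson intervals of dKO 2 (4.66% to 13.0%) and WT 3 (10.2% to 14.8%) overlapped. Reads of the sequence that both genes hold could be given to either, so the share is uncertain. Klrk1 had 1.66, 1.93 and 1.54 reads per Klrd1 read in the libraries labelled dKO and 2.21, 2.21 and 2.51 in WT, again without overlap (exact permutation p = 0.1). Per read of Hcst, the gene of the adaptor DAP10, Klrk1 had 0.419, 0.603 and 0.392 reads in the libraries labelled dKO and 0.587, 0.826 and 1.04 in WT, where dKO 2 lay above WT 1 (exact permutation p = 0.2). Klrc1 had 1.13 ± 0.117 reads per Klrd1 read in the libraries labelled dKO and 1.13 ± 0.386 in WT (exact permutation p = 1).

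**Figure D3:**
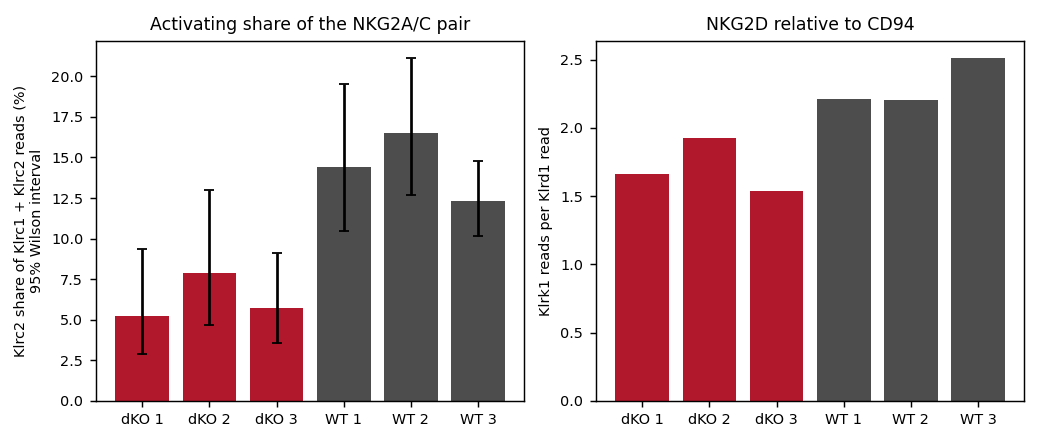
Left, Klrc2 reads as a percentage of Klrc1 and Klrc2 reads in each library, with 95% Wilson intervals of the counts. Right, Klrk1 reads per Klrd1 read in each library, which have no error bars. Red bars are libraries labelled dKO and grey bars WT, and in each panel every red bar is shorter than every grey bar.

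In the NKR-P1 and KLRG family, 5 of 8 genes in the table were tested, with 1 called lower and 1 higher. Klrb1b, an inhibitory NKR-P1 receptor, had 0.356, 1.01 and 0.220 CPM in the libraries labelled dKO and 1.93, 2.47 and 2.42 CPM in WT. It was lower in every library labelled dKO (-2.18 ± 0.51, edgeR adjusted p = 0.0363), and lost its call without dKO 1, dKO 3, WT 2 or WT 3 (edgeR adjusted p = 0.0825 to 0.168). As with Itgax, 0 libraries labelled dKO and 3 WT libraries reached 1.34 CPM, so Klrb1b entered the test through WT. It shares 27.2% of its 50-base stretches with other genes. Klrg1, an inhibitory receptor of effector and regulatory T cells as well as NK cells, went the other way. It had 182, 99.4 and 151 CPM in the libraries labelled dKO and 16.8, 36.5 and 25.7 CPM in WT (2.45 ± 0.35, edgeR adjusted p = 0.0275), and lost its call without dKO 1, dKO 3 or WT 3 (edgeR adjusted p = 0.0808 to 0.0926) and with no filter on low counts (edgeR adjusted p = 0.0547). Cdh1, which encodes E-cadherin, a ligand of KLRG1, was called lower, with 2.85, 2.52 and 2.53 CPM in the libraries labelled dKO and 6.05, 8.03 and 7.64 CPM in WT (-1.46 ± 0.25, edgeR adjusted p = 0.00832).

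Of 13 listed Ly49 genes, 5 were tested and 0 were called by edgeR (2 at an unadjusted p under 0.05, 1 by DESeq2), with 5 of 5 changes below 0 and a median of -0.54. Those nearest to the threshold, named after their values were seen, were Klra1 and Klra9. Klra1, which encodes Ly49A, had 1.07, 0.673 and 0.881 CPM in the libraries labelled dKO and 1.65, 2.72 and 3.92 CPM in WT (-1.68 ± 0.43, edgeR adjusted p = 0.0540). Klra9, which encodes Ly49I, had 1.96, 3.53 and 1.54 CPM in the libraries labelled dKO and 4.26, 5.43 and 11.9 CPM in WT (-1.69 ± 0.46, edgeR adjusted p = 0.0827). Neither gene's groups overlapped, and without WT 1 both were called lower (edgeR adjusted p = 0.0150 for Klra1 and 0.0154 for Klra9). Klra9 shares 31.5% of its 50-base stretches with other genes, 13.1% with Klra3.

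These families share a stretch of chromosome 6, and the whole of it, from Klrb1a to Klra2 in the order of RefSeq, was read as a neighbourhood after the values were seen. It held 57 genes of the count table, and 26 were tested. Of these 2 were called lower, Klrb1b and Klrc2, and 0 higher by edgeR (0 at an unadjusted p under 0.05, 0 by DESeq2). Over all genes tested, edgeR called 1.17% lower and 2.15% higher. Klrb1b, and Klra1 among the genes not called, entered the test through their WT libraries alone. The log2 fold changes of 22 of the 26 lay below 0, with a median of -0.50, against 50.8% of all genes tested and a median of -0.0061. Over the 20 that are not among the 10 genes, 16 lay below 0, with a median of -0.28. The 2 most abundant genes of the stretch, named after their values were seen, were not called. Cd69, an early activation antigen, had 377 CPM in the libraries labelled dKO and 461 CPM in WT (-0.29 ± 0.18, edgeR adjusted p = 0.421). Clec2d, which encodes a ligand of inhibitory NKR-P1 receptors, had 305 CPM in the libraries labelled dKO and 349.8 CPM in WT (-0.20 ± 0.13, edgeR adjusted p = 0.450).

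**Figure D4:**
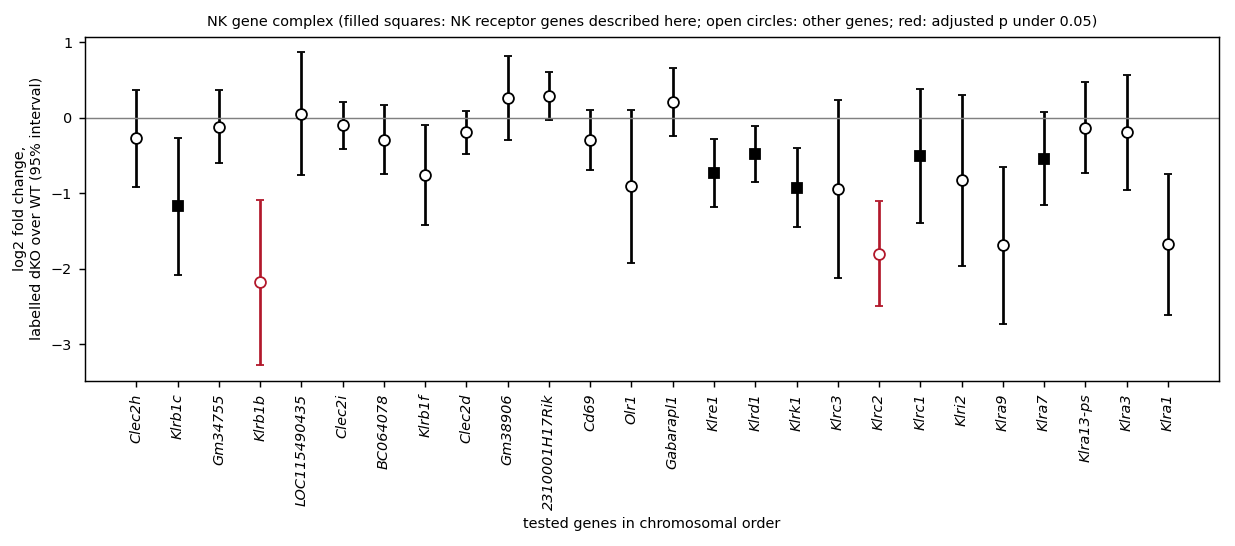
Log2 fold changes of libraries labelled dKO over WT (vertical axis, with 95% intervals from edgeR) for the 26 tested genes of the NK gene complex, set at equal distances in chromosomal order. Filled squares are the 6 receptor genes described one by one in the text, open circles the other 20, and red marks an adjusted p under 0.05. Of the 26, 22 lie below 0, and the 2 in red, Klrb1b and Klrc2, are not among the filled squares.

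Among other NK cell receptors that T cells share, 16 of 18 were tested, with 2 called lower, 0 higher by edgeR (2 at an unadjusted p under 0.05, 2 by DESeq2) and a median of -0.09. Cd226, which encodes the activating receptor DNAM-1, had 131, 149 and 127 CPM in the libraries labelled dKO and 199, 238 and 327 CPM in WT (-0.91 ± 0.17, edgeR adjusted p = 0.0177). The groups did not overlap, and its call was lost without any 1 of the libraries labelled dKO (edgeR adjusted p = 0.0537 to 0.109). Tigit, the inhibitory receptor that competes with DNAM-1 for ligands, had 492, 383 and 358 CPM in the libraries labelled dKO and 95.4, 230 and 133 CPM in WT (1.42 ± 0.34, edgeR adjusted p = 0.0924), with no overlap, and was called higher in 5 of 16 alternatives. Ly6c2, one of the genes of the surface antigen Ly6C, had 72.1, 80.5 and 57.0 CPM in the libraries labelled dKO and 102, 123 and 137 CPM in WT (-0.80 ± 0.14, edgeR adjusted p = 0.0130, and 0.0756 without dKO 1). Il2rb, the IL-2 and IL-15 receptor chain, had 583, 493 and 478 CPM in the libraries labelled dKO and 295, 406 and 404 CPM in WT (0.49 ± 0.14, edgeR adjusted p = 0.0816).

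Of 20 tested genes for receptor adaptors and the kinases next to them, 2 were called lower, Fcer1g and Plcg1, and 0 higher by edgeR (2 at an unadjusted p under 0.05, 1 by DESeq2). The median was -0.08. Plcg1, the phospholipase that T cell receptor signals activate, had 48.4, 47.6 and 52.1 CPM in the libraries labelled dKO and 68.2, 74.3 and 78.0 CPM in WT (-0.57 ± 0.10, edgeR adjusted p = 0.0114, and 0.0654 to 0.0706 without dKO 1 or dKO 2). Hcst, named after its values were seen, encodes DAP10, the adaptor that NKG2D uses in T cells. It had 110, 81.7 and 92.4 CPM in the libraries labelled dKO and 96.7, 104 and 101 CPM in WT. The groups overlapped, and the change was -0.09 ± 0.12 (95% interval -0.34 to 0.16, edgeR adjusted p = 0.739, and 0.0057 without dKO 2). Lat, the scaffold of T cell receptor signalling, had 562 to 651 CPM in the libraries labelled dKO and 711 to 777 CPM in WT (-0.29 ± 0.12, edgeR adjusted p = 0.200). The interval of Hcst thus ended at -0.34, while the reads of Fcer1g and Tyrobp lay lower in every library labelled dKO.

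On the ligand side, 14 of 21 genes in the table were tested, with 2 called lower, Cdh1 and Cd48, and 0 higher by edgeR (1 at an unadjusted p under 0.05, 0 by DESeq2). Cd48, which encodes the ligand of the NK receptor 2B4, had 130, 124 and 112 CPM in the libraries labelled dKO and 163, 199 and 210 CPM in WT (-0.64 ± 0.12, edgeR adjusted p = 0.0124, and 0.0537 to 0.0662 without dKO 1, dKO 2 or WT 3). H2-T23, named after its values were seen, encodes Qa-1, the ligand of CD94-NKG2A. It had 360, 356 and 368 CPM in the libraries labelled dKO and 270, 345 and 315 CPM in WT (0.22 ± 0.12, edgeR adjusted p = 0.329). Cd1d1, also named after its values were seen, encodes the molecule that presents lipids to NKT cells. It had 34.5, 38.3 and 30.2 CPM in the libraries labelled dKO and 29.0, 23.8 and 27.0 CPM in WT (0.36 ± 0.13, edgeR adjusted p = 0.155).

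Beside Zbtb16, 27 other transcription factor genes of innate-like T cells were tested, with 2 called higher, 0 lower by edgeR (4 at an unadjusted p under 0.05, 2 by DESeq2) and a median of 0.17. Tox, which is needed for NK cell and CD4 T cell development, had 157, 151 and 168 CPM in the libraries labelled dKO and 104, 129 and 96.0 CPM in WT (0.54 ± 0.12, edgeR adjusted p = 0.0308). Maf, a factor of interleukin-producing and regulatory T cells, had 525, 385 and 482 CPM in the libraries labelled dKO and 189, 315 and 273 CPM in WT (0.84 ± 0.19, edgeR adjusted p = 0.0401). Each lost its call without any 1 of dKO 1, dKO 2, dKO 3 or WT 3 (edgeR adjusted p = 0.0927 to 0.121 for Tox and 0.0527 to 0.172 for Maf), and Tox by limma on log2(CPM + 1) or log2(CPM + 0.1) (adjusted p = 0.0572 to 0.0638). Neither is restricted to innate-like cells.

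Genes of the NKT cell subsets were read next. Of 11 tested genes of the NKT1 programme outside the 10, 1 was called higher, Ccl5, and 1 lower, Gzma. Ccl5, a chemokine of cytotoxic and memory T cells, had 2199.8, 1860.0 and 1699 CPM in the libraries labelled dKO and 663, 1065 and 844 CPM in WT (1.16 ± 0.18, edgeR adjusted p = 0.00484). Xcl1, a chemokine of NK and NKT cells named after its values were seen, had 6.59, 16.3 and 11.1 CPM in the libraries labelled dKO and 31.8, 65.7 and 95.6 CPM in WT. Its groups did not overlap (-2.51 ± 0.55, edgeR adjusted p = 0.0915), and it was called lower in 6 of 16 alternatives, DESeq2 (adjusted p = 6.04e-04) and the fit without WT 1 (edgeR adjusted p = 0.0121) among them. Of 7 tested NKT2 genes, 1 was called higher, the costimulatory receptor Icos (0.86 ± 0.16, edgeR adjusted p = 0.0149, and 0.0624 to 0.0891 without dKO 1 or dKO 2). The log2 fold changes of 3 of the 7 lay below 0, with a median of 0.21 over all 7. Il4 of this list was named after its values were seen. It had 1.25, 1.35 and 1.87 CPM in the libraries labelled dKO and 1.93, 5.19 and 13.7 CPM in WT. Its groups did not overlap, and it was not called (-2.22 ± 0.77, edgeR adjusted p = 0.187).

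Of 12 tested genes of the NKT17 and MAIT17 programme, which Th17 cells share, 2 were called lower and 0 higher by edgeR (0 at an unadjusted p under 0.05, 0 by DESeq2), all 12 log2 fold changes lay below 0 and the median was -1.41. Il17re, a receptor chain for IL-17C, had 0.178, 0.673 and 0.881 CPM in the libraries labelled dKO and 2.75, 4.94 and 3.17 CPM in WT (-2.51 ± 0.46, edgeR adjusted p = 0.0124, and 0.0562 to 0.0631 without dKO 1 or dKO 2). It too entered the test through its WT libraries alone. Tmem176a, a membrane protein gene of cells with RORγt, had 9.43, 12.4 and 5.62 CPM in the libraries labelled dKO and 19.1, 36.2 and 36.5 CPM in WT (-1.78 ± 0.35, edgeR adjusted p = 0.0452). Its call was lost without any 1 library but WT 1 (edgeR adjusted p = 0.0537 to 0.189).

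Of 11 tested genes of liver residency, 1 was called higher and 2 lower. Itga1, which encodes the CD49a chain that marks innate lymphoid and resident T cells of the liver, had 18.2, 15.98 and 16.7 CPM in the libraries labelled dKO and 30.8, 45.4 and 62.5 CPM in WT (-1.46 ± 0.24, edgeR adjusted p = 0.0168, and 0.0524 to 0.0884 without dKO 1, dKO 2, dKO 3 or WT 2). P2rx7, the ATP receptor of resident and NKT cells, had 57.1, 52.1 and 54.2 CPM in the libraries labelled dKO and 89.0, 83.7 and 134 CPM in WT (-0.91 ± 0.17, edgeR adjusted p = 0.0177, and 0.0708 to 0.0936 without any 1 of the libraries labelled dKO). Itgae, the CD103 chain that binds E-cadherin, had 115, 94.3 and 97.4 CPM in the libraries labelled dKO and 24.3, 40.6 and 24.8 CPM in WT (1.77 ± 0.19, edgeR adjusted p = 0.00228). CD49a and CD103 thus passed the test in opposite directions, while Itgal, another integrin chain of the list named after its values were seen, did not pass it (-0.22 ± 0.12, edgeR adjusted p = 0.324).

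In each of the 10 genes, by the SD, the WT libraries differed among themselves more than the libraries labelled dKO did. The 10 genes summed to 137, 129 and 117 CPM in the libraries labelled dKO and to 140.3, 208 and 299.6 CPM in WT. WT 3 was the highest library for 7 of the 10 genes and WT 2 for the other 3. WT 1 was the lowest WT library for 9, all but Ncr1, and without WT 1 edgeR called 5 of the 10 genes lower, Klrd1, Klrk1, Klrb1c, Klre1 and Fcer1g. In that fit 9 of the 10 genes were tested, and 378 of all 16271 genes tested (2.32%) were called lower, against 183 of 15694 with every library. WT 3 was also the deepest library, at 11078184 reads, and the one with most Siglech, a gene named after its values were seen. The part of either in the high values of WT 3 was not tested.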

How the data were processed

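The values tested were the raw read counts per gene that the authors deposited. They were made from single-end NovaSeq reads with cutadapt and Bowtie2, as the submitters' processing notes name them, on a genome named both as mm10 and as GRCm39. The sources used here do not give tool versions, the annotation, the counting tool or its use of strand. The authors' normalised table, called TPM, holds CPM: 100% of its 170580 values give back whole reads within 0.01 reads. It was used in 2 alternatives only, and the planned tests had assumed TPM. The authors' table of mapped reads was not used.

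Genes were kept by filterByExpr (minimum count 10, minimum total 15), scaled by TMM (factors 0.964 to 1.04) and tested by edgeR 4.0.16 (quasi-likelihood F-test, robust) under R 4.3.3, dKO over WT with group as the sole term, and p-values were Benjamini-Hochberg adjusted over 15694 genes with a threshold of 0.05. The SE is the log2 fold change over the root of the F statistic, and 95% intervals use the degrees of freedom of the fit. The 10 genes and the lists were chosen with earlier results of these data known. From each list the text names the genes called, up to 4, and a selection of the most abundant others, and any other gene, apart from the targeted genes and defining markers, is marked as named after its values were seen. Alternatives were other scalings and filters, DESeq2 1.42.0, limma 3.58.1 (voom, and log2 of CPM plus 1 or 0.1), a replicate block, each library left out and the study's thresholds. The methods state independent biological replicates, and no libraries agreed within counting error (chi-square per degree of freedom 6.40 to 37.0). Exact permutation of 3 against 3 libraries has 0.1 as its smallest p. Totals of 5747744 to 11078184 reads limit genes under about 1 CPM. Exon lengths and shared 50-base stretches came from GENCODE on GRCm38 and promoters from RefSeq. The fit was tested on simulated data.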

Additional observations from a re-analysis of the deposited data

How the results depend on the processing

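The count of the 10 genes called lower was 1 with edgeR, and also 1 with RLE or upper-quartile factors, a filter of 1 CPM in 3 libraries, limma-voom or the replicate block, although the gene called by limma-voom was Klrk1 and not Fcer1g. It was 2 with library totals alone, 2 by limma on log2(CPM + 1), 2 on log2(CPM + 0.1) and 2 at the study's thresholds. It was 3 by DESeq2 and 5 with no filter on low counts. When each library was left out it was 0 to 5, with 0 without dKO 1 or dKO 2 and 5 without WT 1. Calls lower over all genes moved too. They were 183 of 15694 with edgeR and 154 to 247 in the other settings with 1. They were 216 with library totals alone, 201 and 175 by limma on the 2 log2 scales and 215 at the study's thresholds. By DESeq2 they were 247 and with no filter 560 of 27108. They were 42 without dKO 1, 58 without dKO 2 and 378 without WT 1. The cause of these differences was not tested. None of the 10 genes was called higher under any alternative. The log2 fold changes of the 8 genes stayed below 0 under each of 16 alternatives, except Klrc1 (-0.74 to 0.0047 when each library was left out) and Zbtb16 (-0.97 to 0.13), which turned without WT 3. Of the other genes named, Hcst (-0.21 to 0.0057) turned without dKO 2. Over all genes, 756 were higher and 560 lower with no filter, 713 were higher at the study's thresholds, and 90 to 447 were higher and 42 to 378 lower when each library was left out.

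Libraries that share a replicate number did not deviate together (correlations of 0.058, 0.026 and -0.086), so the numbers were not taken as pairs. With the replicate number as a block, 307 genes were higher and 184 lower, and 1 of the 10 was lower. Klrg1 (adjusted p = 0.115) and Maf (0.104) lost their calls, and Xcl1 was called lower (-2.49, adjusted p = 0.00143). Reads under 10 in a library limit Ncr1, Tyrobp and Fcer1g.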
